A study of Mus musculus with 18 samples.

Results

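The 10 genes *Tnf*, *Il1a*, *Il1b*, *Tnfrsf12a*, *Nfkb1*, *Nfkb2*, *Relb*, *Nfkbia*, *Tnfaip3* and *Birc3* were followed in 18 injured mouse kidneys as members of the NF-kappaB, TNF and IL-1 signalling pathway. They were chosen by name from the 45706 genes of the count files, and all 10 were found. Both kidneys of C57BL/6 mice had been clamped for 22.5 min and perfused again for 12 h before RNA of the whole kidney was sequenced. The *Cxcl12* KO group (n = 5) carried floxed *Cxcl12* with the transgenes Pax8rtTA and TetOcre, and the *Cxcl12* control group (n = 3) carried floxed *Cxcl12* with Pax8rtTA alone. The *Myc* KO group (n = 5) and the *Myc* control group (n = 5) had the same make-up around floxed *Myc*. All mice were young adult males and were given doxycycline, which turns on the recombinase through Pax8rtTA in tubule cells, so that blood vessels, glomeruli and infiltrating leukocytes kept the floxed gene. The controls are titled WT in the labels but also carried the floxed allele and Pax8rtTA, and no uninjured kidney was analysed here. The questions addressed were whether the pathway differed after loss of tubular *Cxcl12* or *Myc*, whether these differences were alike, and how far the controls of the cohorts differed.

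NF-kappaB is a family of dimeric transcription factors that IkappaB proteins hold in the cytoplasm. TNF and IL-1 bind receptors that activate the IKK kinase complex, IKK marks IkappaB for degradation, and the freed dimers enter the nucleus and switch on cytokines, chemokines and their own inhibitors. In the ischemic kidney, dying tubule cells release signals that start this response both in tubule cells and in arriving leukocytes. Because whole kidneys were measured, fewer cells of a type and less RNA per cell cannot be told apart in any value given here.

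Sequencing gave 12918220 to 29749500 reads on genes in a kidney. Levels are counts scaled to a fixed total of these reads (CPM), scaled by the TMM method over the 18 kidneys. The target genes had log2 fold changes of -0.73 for *Cxcl12* in *Cxcl12* KO kidneys (adjusted p = 0.094) and -1.61 for *Myc* in *Myc* KO kidneys (adjusted p = 8.8e-05). Kidney tissue was recognisable in every sample, with 8 proximal tubule markers summing to between 4518 and 7420 CPM. In 6 kidneys (*Cxcl12* KO 1 and 2, *Myc* KO 3 and 5, and *Myc* control 1 and 3) between 3.69% and 4.63% of the reads were unmapped, against 5.28% or more in the others, and no *Cxcl12* control kidney was among them. The study's methods mention a correction for batch effects with ComBat, but neither they nor the labels say which kidneys formed a batch, so whether these 6 (called those with under 5% unmapped reads below) did is not known here. Counts of calls, and correlations after subtraction of group means, are also given without them.

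Inhibitors of NF-kappaB are among its best known targets, and the sequence before their starts is shown because it holds the letters that NF-kappaB dimers bind. The 10-letter NF-kappaB consensus was searched on both strands of the 250 bases before each gene start in RefSeq (GRCm38.p6). It was present in 2382 of 32851 promoters, or 7.25%, and in 29 of 125 promoters of the pathway genes described below, or 23.2%. Of the 10 genes, 8 had an entry, and 5 of their 11 promoters held a match. The whole window of *Nfkbia* on chromosome 12 (minus strand, chr12:55492648-55492897) is printed from 5′ to 3′ in the direction of transcription, with the match in capitals.
*Nfkbia*: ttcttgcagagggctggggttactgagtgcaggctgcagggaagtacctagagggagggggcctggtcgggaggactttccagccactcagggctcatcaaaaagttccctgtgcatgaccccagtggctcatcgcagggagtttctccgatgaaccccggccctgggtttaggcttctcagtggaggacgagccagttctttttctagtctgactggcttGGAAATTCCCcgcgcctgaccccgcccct

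The match in *Nfkbia* began 29 bases before the start and read as the consensus on the opposite strand. *Tnfaip3* (minus strand of chromosome 10) had a match beginning 125 bases before its start, read on both strands, and another beginning 12 bases before it. *Nfkb2* (plus strand of chromosome 19) had matches at 39 and 38 bases that overlapped by all but their ends, and another at 11 bases. Its other listed starts held 1 match each, 236 and 225 bases upstream. The windows of 30 bases around the matches nearest to the first start are shown so that the sites of an inhibitor and a subunit can be read beside each other, with the matched letters in capitals.
*Tnfaip3*, chr10:19015516-19015545: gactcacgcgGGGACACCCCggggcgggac
*Tnfaip3*, chr10:19015411-19015440: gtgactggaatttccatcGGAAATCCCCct
*Nfkb2*, chr19:46304688-46304717: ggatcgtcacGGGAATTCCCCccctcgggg
*Nfkb2*, chr19:46304707-46304736: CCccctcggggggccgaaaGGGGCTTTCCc

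The windows of *Tnf*, *Il1a*, *Il1b*, *Birc3* and *Tnfrsf12a* held no match to these letters, which says nothing of sites elsewhere. A match describes letters in a window, and binding was not measured.

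Levels per kilobase were divided by the joined length of all annotated exons of a gene, so the order of genes depends on that length. It was 12061 bases for *Nfkb1* and 4584 bases for *Nfkb2*, whose mean levels in *Myc* KO kidneys were 97.7 and 94.2 CPM. By this measure the levels spanned a wide range. *Tnfrsf12a* was highest, with a mean of 210.5 CPM per kb over the 18 kidneys, followed by *Nfkbia* with 61.5 CPM per kb and *Nfkb2* with 20.1 CPM per kb. *Relb* (10.1 CPM per kb), *Birc3* (9.15 CPM per kb) and *Nfkb1* (7.34 CPM per kb) lay close together, and their ranges over kidneys overlapped. *Il1b* and *Tnfaip3* followed with 4.89 and 3.46 CPM per kb. *Tnf* and *Il1a* were at the bottom with 0.311 and 0.132 CPM per kb. By this measure the ligand genes *Tnf* and *Il1a* were the least abundant of the 10, and *Tnfrsf12a*, a receptor of the TNF family, was the most abundant. The ligand gene *Il1b* ranked above *Tnfaip3* over all 18 kidneys, but below it on average in both *Cxcl12* groups. In *Cxcl12* control kidneys *Il1b* averaged 1.03 and *Tnfaip3* 2.63 CPM per kb.

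**Figure D1:**
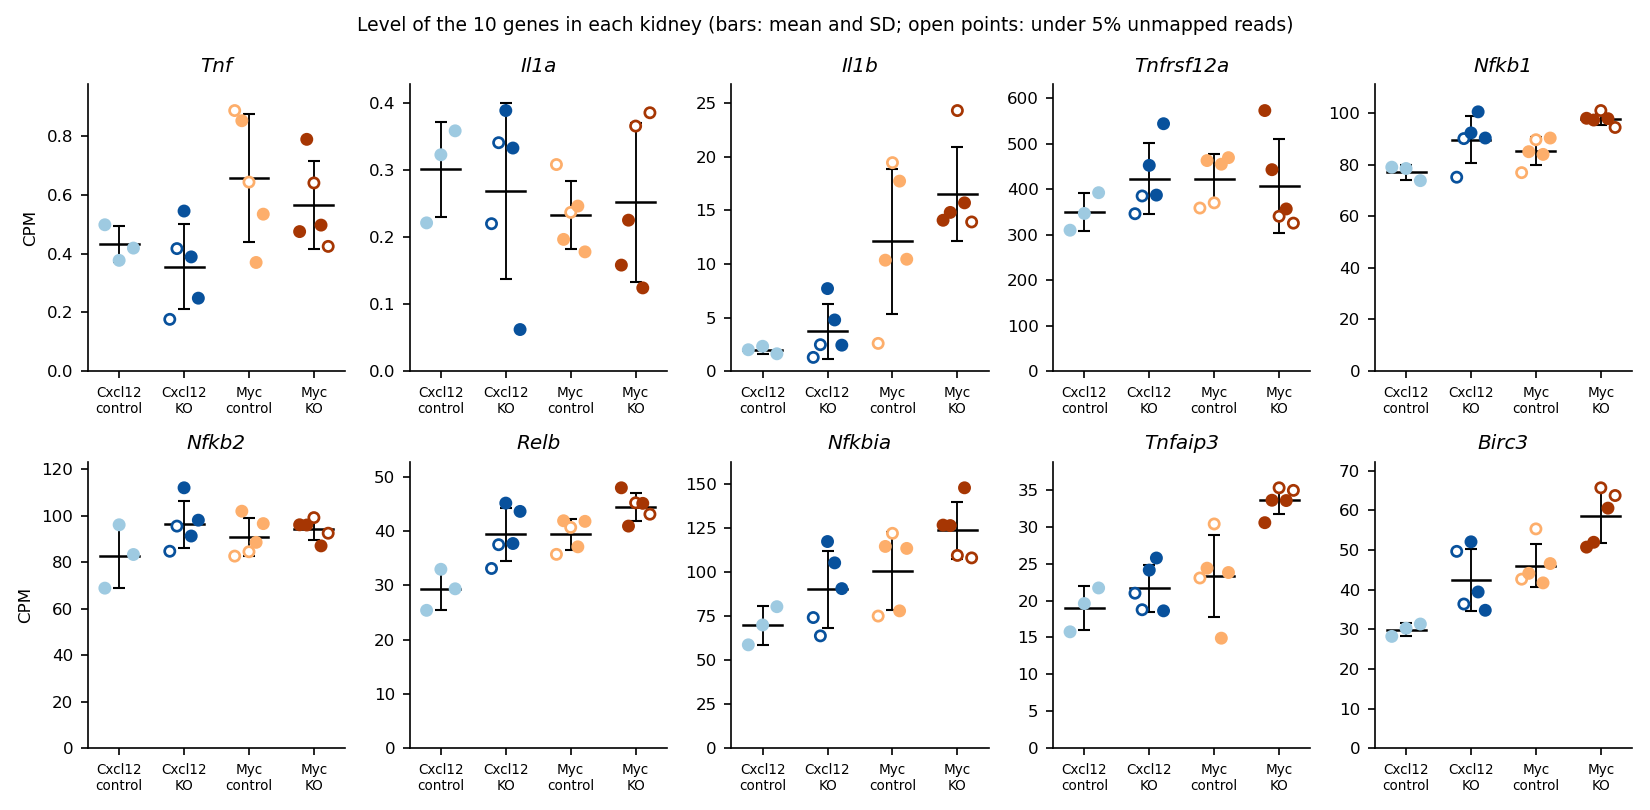
Each panel plots the level of 1 gene in CPM (vertical axis, from 0) in every kidney of the 4 groups, with the mean and SD as black bars. Open points are the 6 kidneys with under 5% unmapped reads. *Cxcl12* control kidneys have the lowest mean for 8 of the 10 genes, all but *Tnf* and *Il1a*, and the 5 *Myc* KO kidneys lie above every other kidney for *Tnfaip3*.

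In *Cxcl12* KO against *Cxcl12* control kidneys none of the 10 genes differed after adjustment over all genes. Of the 10, 8 passed the filter on low counts and were tested, and their log2 fold changes were all above 0, as were those of 50.2% of all genes tested. edgeR's quasi-likelihood test with Benjamini-Hochberg adjustment called 0 of the 8 and 0% of all 15154 genes. At an unadjusted p under 0.05 there were 3 of the 8 against 13% of all genes, and DESeq2 and limma-voom also called 0 of the 10 genes. The median log2 fold change was 0.32 for the 8 genes and 0.00083 for all genes. In 2 genes, *Relb* and *Birc3*, every KO kidney lay above every control kidney, as in 4.96% of all genes.

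In *Myc* KO against *Myc* control kidneys the same test called 0 of 9 genes tested and 1.65% of all 14936 genes, or 0.355% counting only genes higher in the KO. At an unadjusted p under 0.05 there were 4 of the 9, *Tnfaip3*, *Birc3*, *Nfkb1* and *Relb*, all higher in the KO, against 10.6% of all genes. The log2 fold change was above 0 in 7 of 9 genes and in 49.9% of all genes, and the median was 0.20 for the 9 genes and -0.00083 for all genes. KO and control kidneys did not overlap for *Tnfaip3* and *Nfkb1*, with the KO higher as in 2.05% of all genes. DESeq2 called *Tnfaip3*, *Nfkb1* and *Birc3* higher in the KO, and limma-voom called 0. Leaving out *Myc* control 3 brought edgeR's number of calls to 2, *Tnfaip3* and *Birc3*, and so did a term for the kidneys with under 5% unmapped reads. Without these kidneys edgeR called 0. Over all genes DESeq2 called 1081 and limma-voom 215. The fit without *Myc* control 3 called 877 of all genes, the fit with this term 954 and the fit without these kidneys 8.

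Of the ligands, *Tnf* and *Il1a* were scarce. *Tnf* (ENSMUSG00000024401, chr17:35199381-35202007), which encodes the founding ligand of the TNF family, had between 4 and 23 reads in a kidney. Its level was 0.176, 0.417, 0.545, 0.388 and 0.248 CPM in the *Cxcl12* KO and 0.498, 0.377 and 0.418 CPM in the *Cxcl12* control kidneys. In the *Myc* KO kidneys it was 0.475, 0.789, 0.640, 0.497 and 0.424 CPM, and in the *Myc* control kidneys 0.886, 0.852, 0.643, 0.370 and 0.534 CPM. The groups overlapped in both cohorts. The gene was not tested in the *Cxcl12* cohort, and in the *Myc* cohort its log2 fold change was -0.23 (standard error, SE, 0.31, adjusted p = 0.69).

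*Il1a* (ENSMUSG00000027399, chr2:129299610-129309972), whose product is released from dying cells as an alarm signal, had between 1 and 10 reads in a kidney and was removed by the filter on low counts in every comparison. Without the filter edgeR's log2 fold change was -0.16 (adjusted p = 0.94) in *Cxcl12* KO and 0.14 (adjusted p = 0.93) in *Myc* KO kidneys. Its mean level was 0.269 ± 0.131 CPM (SD, n = 5) in *Cxcl12* KO kidneys and 0.301 ± 0.0713 CPM (SD, n = 3) in their controls. It was 0.252 ± 0.119 CPM (SD, n = 5) in *Myc* KO kidneys. *Myc* control kidneys averaged 0.233 ± 0.0506 CPM (SD, n = 5). All 4 ranges overlapped. Its exons overlap those of *Gm14023* on the opposite strand, and the counts used ignore strand, so reads of the pair cannot be told apart.

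*Il1b* (ENSMUSG00000027398, chr2:129364570-129371139) encodes the IL-1 made mainly by myeloid cells and cleaved by the inflammasome. It was measured at 1.28, 2.46, 7.70, 4.77 and 2.42 CPM in the *Cxcl12* KO kidneys. The *Cxcl12* control kidneys had 1.99, 2.31 and 1.61 CPM. KO kidneys 2 to 5 lay above and KO kidney 1 below every control, and the log2 fold change of 0.87 had an SE of 0.50 (adjusted p = 0.48). In the *Myc* KO kidneys the level was 14.1, 14.8, 24.3, 15.7 and 13.9 CPM, with kidney 3 far above the others. The *Myc* control kidneys had 2.58, 10.4, 19.5, 17.7 and 10.4 CPM. *Myc* control 1 was far below the other *Myc* kidneys and controls 3 and 4 lay inside the KO range, with a log2 fold change of 0.46 (SE 0.39, adjusted p = 0.51). Between KO and control, the difference of mean log2 CPM was 1.35 among the 4 *Myc* kidneys with under 5% unmapped reads and 0.26 among the other 6. The exons of *Il1b* overlap those of the antisense gene *Il1bos*, and reads of the pair cannot be told apart.

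*Tnfrsf12a* (ENSMUSG00000023905, chr17:23675445-23677468) encodes Fn14, the receptor of the TNF-like cytokine TWEAK, which is induced in injured tubule cells and activates NF-kappaB. Its level was 346, 385, 453, 387 and 544 CPM in *Cxcl12* KO and 309.9, 347 and 392 CPM in *Cxcl12* control kidneys. KO kidneys 3 and 5 exceeded every control. The log2 fold change was 0.27 (SE 0.15, adjusted p = 0.46). In *Myc* KO kidneys it was 573, 443, 341, 357 and 325 CPM, and in *Myc* control kidneys 359, 463, 370.1, 455 and 469.5 CPM. The *Myc* groups overlapped fully, with *Myc* KO 1 the highest of all 18 kidneys, and the log2 fold change of -0.053 (SE 0.15, adjusted p = 0.87) turned to 0.0082 without *Myc* KO 3 and 0.019 without *Myc* KO 5.

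Among the subunits, *Nfkb1* (ENSMUSG00000028163, chr3:135584655-135691547) encodes p105, the precursor of p50 in the canonical dimer. *Cxcl12* KO kidneys had 75.2, 90.1, 92.3, 100.5 and 90.4 CPM and *Cxcl12* control kidneys 79.0, 78.5 and 73.8 CPM. In 4 of 5 KO kidneys the level was above every control. *Myc* KO kidneys had 98.0, 97.3, 101, 97.8 and 94.5 CPM and *Myc* control kidneys 76.9, 85.1, 89.7, 84.0 and 90.3 CPM. The *Myc* groups did not overlap, although the shift was small. The log2 fold change was 0.21 (SE 0.094, adjusted p = 0.37) after *Cxcl12* loss and 0.20 (SE 0.065, adjusted p = 0.12) after *Myc* loss. In the *Myc* kidneys, the difference of mean log2 CPM was 0.23 among the 4 kidneys with under 5% unmapped reads and 0.18 among the other 6.

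*Relb* (ENSMUSG00000002983, chr7:19606217-19629438) and *Nfkb2* (ENSMUSG00000025225, chr19:46304320-46312385) encode RelB and the p52 precursor p100, which form the dimer of the non-canonical arm. *Relb* was at 33.1, 37.5, 45.1, 37.7 and 43.6 CPM in *Cxcl12* KO and at 25.4, 32.9 and 29.4 CPM in *Cxcl12* control kidneys. Every KO kidney lay above every control, KO kidney 1 only barely. The log2 fold change was 0.42 (SE 0.12, adjusted p = 0.20), or 1.34-fold. In *Myc* KO kidneys *Relb* was at 47.9, 40.9, 45.2, 45.1 and 43.1 CPM and in *Myc* control kidneys at 35.7, 41.9, 40.6, 37.1 and 41.8 CPM. KO kidney 2 lay within the control range and the others above it, with a log2 fold change of 0.17 (SE 0.074, adjusted p = 0.20).

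*Nfkb2* was at 84.8, 95.6, 112, 91.4 and 98.2 CPM in *Cxcl12* KO and at 68.9, 96.2 and 83.4 CPM in *Cxcl12* control kidneys, and the groups overlapped. It was at 96.2, 96.1, 99.3, 87.1 and 92.6 CPM in *Myc* KO and at 82.7, 102, 84.6, 88.6 and 96.7 CPM in *Myc* control kidneys, where all KO kidneys lay within the control range. The log2 fold changes were 0.21 (SE 0.12, adjusted p = 0.47) and 0.054 (SE 0.077, adjusted p = 0.71). The *Myc* value turned to -0.033 without the kidneys with under 5% unmapped reads. Exons of *Nfkb2* overlap those of *Psd* on the opposite strand, and reads of the pair cannot be told apart.

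Of the inhibitors, *Nfkbia* (ENSMUSG00000021025, chr12:55489410-55492647) encodes IkappaB-alpha, which carries NF-kappaB out of the nucleus. It was at 74.2, 63.8, 117, 105 and 90.7 CPM in *Cxcl12* KO and at 58.7, 70.0 and 80.4 CPM in *Cxcl12* control kidneys. KO kidneys 3 to 5 exceeded every control, whereas kidneys 1 and 2, both with under 5% unmapped reads, lay within the control range. The log2 fold change was 0.37 (SE 0.19, adjusted p = 0.44). In *Myc* KO kidneys *Nfkbia* was at 127, 126, 109.5, 148 and 108 CPM. In *Myc* control kidneys it was at 75.1, 115, 122, 78.0 and 113 CPM, with kidneys 1 and 4 well below the rest. The groups overlapped, and the log2 fold change was 0.30 (SE 0.15, adjusted p = 0.25).

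*Tnfaip3* (ENSMUSG00000019850, chr10:19000910-19015657) encodes A20, a ubiquitin-editing enzyme that ends signalling from the TNF and IL-1 receptors. *Cxcl12* KO kidneys had 21.0, 18.8, 24.1, 25.8 and 18.6 CPM and *Cxcl12* control kidneys 15.8, 19.6 and 21.7 CPM. These groups overlapped, with a log2 fold change of 0.18 (SE 0.14, adjusted p = 0.62). *Myc* KO kidneys had 30.5, 33.6, 35.3, 33.5 and 34.9 CPM, with an SD of 1.86 CPM around a mean of 33.6 CPM. *Myc* control kidneys were more spread, at 23.0, 24.4, 30.4, 14.9 and 23.8 CPM around a mean of 23.3 ± 5.52 CPM (SD, n = 5). The groups did not overlap, though *Myc* control 3 nearly reached the lowest KO kidney, and the log2 fold change was 0.53 (SE 0.14, adjusted p = 0.085), or 1.44-fold. The difference of mean log2 CPM was 0.41 among the 4 *Myc* kidneys with under 5% unmapped reads and 0.66 among the other 6.

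*Birc3* (ENSMUSG00000032000, chr9:7848699-7873186) encodes cIAP2, a ubiquitin ligase at the TNF receptor that blocks cell death and is itself a target of NF-kappaB. Its level was 49.6, 36.4, 52.0, 39.4 and 34.8 CPM in *Cxcl12* KO and 28.2, 30.2 and 31.3 CPM in *Cxcl12* control kidneys. All KO kidneys exceeded the tightly grouped controls, with a log2 fold change of 0.50 (SE 0.14, adjusted p = 0.19), or 1.41-fold. In *Myc* KO kidneys it was 50.7, 51.9, 65.7, 60.5 and 63.7 CPM. In *Myc* control kidneys it was 42.6, 44.1, 55.3, 41.7 and 46.6 CPM, and control 3 alone lay inside the KO range. The log2 fold change was 0.35 (SE 0.10, adjusted p = 0.097), and the difference of mean log2 CPM was 0.41 among the kidneys with under 5% unmapped reads and 0.30 among the others.

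**Figure D2:**
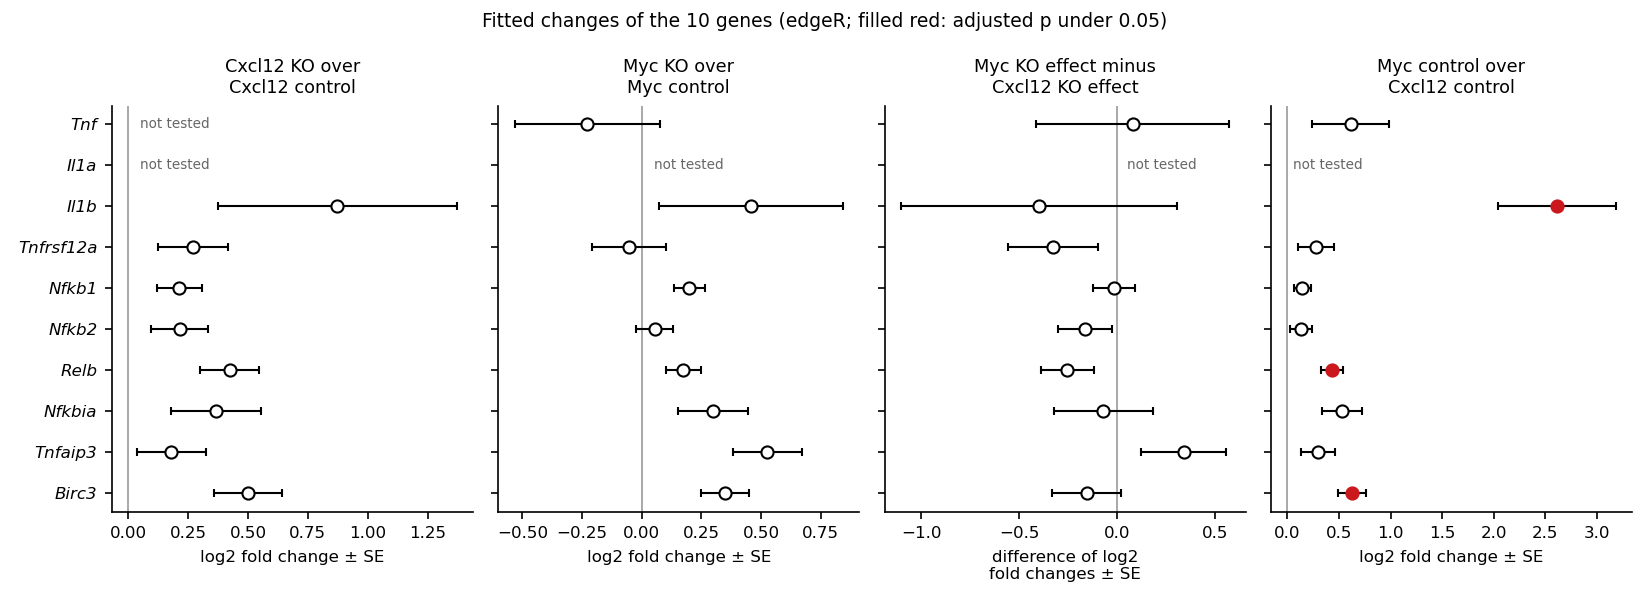
The points give the fitted log2 fold change of each gene (horizontal axis) with its standard error for 4 comparisons, 1 per panel, each with its own scale. Filled red points passed an adjusted p of 0.05 in edgeR's test: only *Il1b*, *Relb* and *Birc3* in *Myc* control against *Cxcl12* control kidneys.

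Whether the KO effects differed between the cohorts was tested over all 18 kidneys as the *Myc* KO effect minus the *Cxcl12* KO effect. edgeR's test called 0 of 9 genes and 0.0692% of all 15903 genes, with 0 of the 9 genes at an unadjusted p under 0.05 against 11.4% of all genes, and 2 of 9 differences above 0 against 49% of all genes, and DESeq2 and limma-voom also called 0. *Relb* had the smallest adjusted p, 0.52, with a difference of -0.25 (SE 0.14). The widest difference in the other direction was that of *Tnfaip3*, 0.34 (SE 0.22, adjusted p = 0.62). For *Nfkb1* the effects were 0.21 and 0.20 and the difference was -0.019 (SE 0.11). For *Il1b* the standard error of the difference was 0.70, larger than the difference itself (-0.40).

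The controls of the cohorts, all injured alike and all without recombinase were compared next. edgeR's test called 3 of 9 genes in *Myc* control against *Cxcl12* control kidneys, all higher in the *Myc* controls, against 1.99% of all 15903 genes and 1.12% counting higher genes only. At an unadjusted p under 0.05 there were 4 of 9, with *Nfkbia* beside these 3, against 17.7% of all genes. All 9 log2 fold changes were above 0, as were those of 49.3% of all genes, and the median was 0.43 for the 9 genes and -0.0034 for all genes. *Il1b* averaged 12.1 ± 6.75 CPM (SD, n = 5) in *Myc* controls against 1.97 ± 0.351 CPM (SD, n = 3) in *Cxcl12* controls, with a log2 fold change of 2.61 (SE 0.57, adjusted p = 0.025). *Birc3* averaged 46.1 ± 5.49 CPM (SD, n = 5) and 29.9 ± 1.58 CPM (SD, n = 3), with a log2 fold change of 0.62 (SE 0.14, adjusted p = 0.025). *Relb* averaged 39.4 ± 2.85 CPM (SD, n = 5) and 29.2 ± 3.78 CPM (SD, n = 3), with a log2 fold change of 0.43 (SE 0.11, adjusted p = 0.040). In each of these 3 genes all 5 *Myc* controls lay above all 3 *Cxcl12* controls, as in 6.23% of all genes, though for *Il1b* *Myc* control 1 did so by little (2.58 against 2.31 CPM). The 3 genes were called in this contrast, so their separation is no further support.

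This contrast rested on few kidneys. Without *Cxcl12* control 1, 2 or 3, or without *Myc* control 3, edgeR called 0 of the 10 genes. Over all genes these fits called 49, 60, 122 and 118, against 316 in the main fit. *Relb* alone was also no longer called without *Myc* control 2, *Myc* control 5 or *Myc* KO 3, which shares the estimate of the spread. DESeq2 called the same 3 genes and limma-voom called *Relb* and *Birc3*. Over fits that each left out 1 kidney, the log2 fold change stayed between 2.36 and 2.88 for *Il1b*, between 0.55 and 0.66 for *Birc3* and between 0.34 and 0.53 for *Relb*. The adjusted p over these fits reached 0.12, 0.14 and 0.21. Without the kidneys with under 5% unmapped reads 1 gene, *Il1b*, was called. That fit called 334 of all 15574 genes, against 316 in the main fit. The floxed allele, the breeding line and any batch between the cohorts cannot be told apart. The same 3 *Cxcl12* control kidneys, the lowest group on average for *Birc3*, *Relb* and *Il1b*, also serve in the *Cxcl12* KO comparison, and the *Myc* control kidneys in the *Myc* KO comparison.

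Ordered by group mean, *Myc* KO was the highest group for 6 of the 10 genes: *Tnfaip3*, *Nfkbia*, *Nfkb1*, *Relb*, *Birc3* and *Il1b*. For *Tnfaip3* it stood clear of the next group, *Myc* control. For *Relb* and *Birc3* the ranges of the upper 3 groups overlapped with their neighbours, and the gap lay below *Cxcl12* KO, above *Cxcl12* control. For the other 7 genes each group overlapped its neighbour in the order.

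The wider pathway was read from 6 lists with 124 other genes. In *Myc* KO against *Myc* control kidneys 2 of 116 tested genes were called, both higher and both in the list of NF-kappaB subunits and IkappaB proteins. Counting both directions this share is close to the 1.65% of all genes called, of which 0.355% were higher. *Rel*, which encodes the c-Rel subunit of lymphoid and myeloid cells, was at 16.1, 17.6, 19.8, 16.9 and 19.0 CPM in *Myc* KO and at 10.7, 12.0, 13.4, 8.62 and 12.6 CPM in *Myc* control kidneys. It rose by a log2 fold change of 0.64 (SE 0.12, adjusted p = 0.026) with no overlap of the groups. *Nfkbiz*, which encodes the nuclear IkappaB-zeta that helps to induce later cytokines, was at 82.4, 85.7, 107, 94.7 and 92.7 CPM in *Myc* KO and at 74.4, 69.5, 77.7, 61.6 and 60.0 CPM in *Myc* control kidneys. It rose by 0.43 (SE 0.095, adjusted p = 0.042), again with no overlap. Both genes were called in this same comparison, so the lack of overlap is no further support. Of all 14936 genes, 306 did not overlap with the KO higher and 585 with it lower. The other 5 genes of that list did not pass. Among them were *Rela*, the main activating subunit, at 0.20 (adjusted p = 0.16), *Nfkbid* at 0.69 (adjusted p = 0.084) and *Nfkbib*, lower at -0.24 (adjusted p = 0.17). Of the 7 genes of the list, 5 were above 0 and 2 below. Without *Myc* KO 2, 3, 4 or 5, or without the kidneys with under 5% unmapped reads, 0 pathway genes were called. The number was 1 without *Myc* control 2 (*Cxcl5*) and 1 without *Myc* control 5 (*Rel*). Without *Myc* control 3 it was 16, with *Rel* and *Nfkbiz* among them. Calls over all genes moved as well, from 246 in the main fit to 21, 29, 54, 78 and 8 in the fits that called 0. They numbered 35 and 108 without *Myc* control 2 or 5, and 877 without *Myc* control 3.

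In the other lists no gene passed in this cohort. The list of other genes known to respond to NF-kappaB had 25 of 29 log2 fold changes above 0, against 49.9% of all genes, with the smallest p for *Il6* (1.14, adjusted p = 0.059), *Ptgs2*, which encodes the cyclooxygenase COX-2 (1.09, adjusted p = 0.059), and the neutrophil chemokine *Cxcl5* (1.15, adjusted p = 0.088). The IL-1 family and its receptors had 20 of 25 above 0, with *Il18rap*, a subunit of the IL-18 receptor, at 0.91 (adjusted p = 0.087). The IKK complex with its kinases and adaptors had 12 of 22 above 0, the other inhibitors 6 of 11 and the TNF superfamily 13 of 22, where *Tnfsf15* was higher in every KO kidney (0.65, adjusted p = 0.11). *Rbck1*, which encodes a subunit of the ubiquitin ligase LUBAC, was at -0.19 (adjusted p = 0.12) and was lower in every KO kidney than in any control. *Tnfsf15* and *Rbck1* were picked from this comparison by p, so their separation is no further support.

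In *Cxcl12* KO against *Cxcl12* control kidneys edgeR called 0 of 114 pathway genes tested. At an unadjusted p under 0.05, 20 were higher and 4 lower, against 6.41% and 6.63% of all genes. DESeq2 called 10 and limma-voom 0, against 355 and 0 of all genes. Without *Cxcl12* KO 1 edgeR called 2, against 15 of all genes. Values furthest from 0 for their error were those of the decoy TNF family receptor *Tnfrsf23* (0.65, adjusted p = 0.089), the IL-1 family inhibitory receptor *Sigirr* (-0.49, adjusted p = 0.097), the inhibitory kinase *Irak3* (0.81, adjusted p = 0.11) and *Lcn2* (0.84, adjusted p = 0.11), an iron-trapping protein of neutrophils and injured tubules. In each of these 4 genes the KO and control kidneys did not overlap, which is no further support because the genes were picked from this comparison. Of all 15154 genes, 752 did so with the KO higher and 715 with it lower. The chemokine *Cxcl2* (1.85, adjusted p = 0.12) and the decoy IL-1 receptor *Il1r2* (2.18, adjusted p = 0.16) had larger values with larger errors. Log2 fold changes were above 0 in 23 of 25 genes of the IL-1 list, 6 of 7 subunits and IkappaB proteins, 9 of 11 other inhibitors, 19 of 29 responding genes, 14 of 22 IKK genes and 13 of 20 TNF superfamily genes, against 50.2% of all genes. The ligand *Tnfsf10*, which encodes TRAIL and was likewise picked from this comparison, was lower in every KO kidney than in any control (-0.63, adjusted p = 0.28). Without the kidneys with under 5% unmapped reads 7 pathway genes were called, all higher in the KO: *Il1r2*, *Irak3*, *Cxcl5*, *Il6*, *Ptgs2*, *Mmp9* and *Lcn2*. That fit called 80 of all 14948 genes, 42 of them higher.

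**Figure D3:**
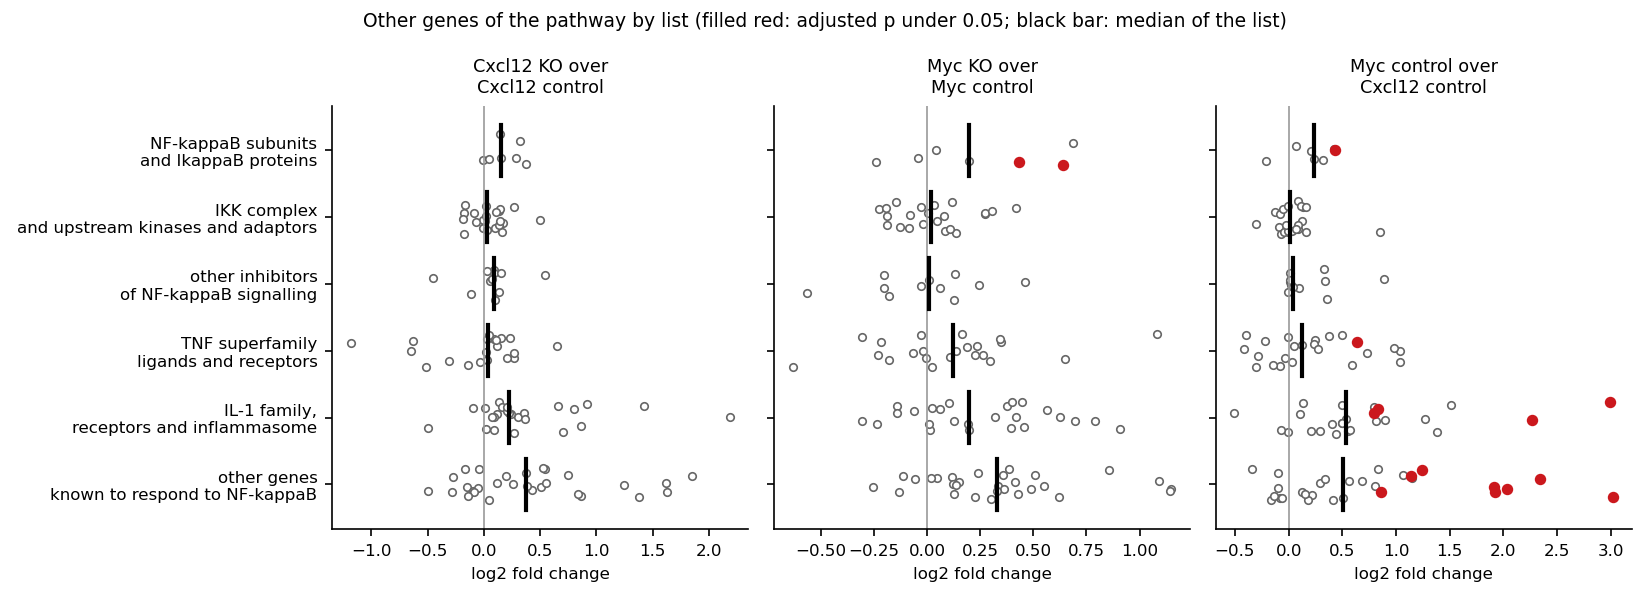
Each point is the log2 fold change (horizontal axis) of 1 gene of the 6 pathway lists (rows) in 3 comparisons, and black bars are list medians. Filled red points passed an adjusted p of 0.05: 0 in the *Cxcl12* KO, 2 in the *Myc* KO and 14 in the control comparison, all to the right of 0.

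In the difference between the KO effects 0 of 117 pathway genes passed in edgeR's test, DESeq2 or limma-voom, and edgeR had 10 at an unadjusted p under 0.05, a smaller share than the 11.4% of all genes. In *Myc* control against *Cxcl12* control kidneys 14 of 117 passed, all higher in *Myc* controls, against 1.99% of all genes and 1.12% counting higher genes only. *Cxcl2*, a chemokine for neutrophils, was at 19.7, 42.0, 54.4, 22.6 and 24.1 CPM in *Myc* control and at 1.94, 4.36 and 5.80 CPM in *Cxcl12* control kidneys (log2 fold change 3.02, standard error 0.45, adjusted p = 0.0018). *Cxcl1* (1.24), *Cxcl5* (2.03), *Il6* (1.93), *Ptgs2* (1.91), *Ier3* (0.86), *Lcn2* (1.14) and the matrix protease *Mmp9* (2.34) completed the responding genes. From the IL-1 list came *Il1r2* (2.99), the receptor subunit *Il1rap* (0.83), the IL-36 ligand *Il36g* (2.27) and *Irak3* (0.79), and from the others *Nfkbiz* (0.43) and *Tnfrsf23* (0.64). Apart from *Ier3*, each had all *Myc* controls above all *Cxcl12* controls, as in 6.23% of all genes. They were called in this same contrast, so this separation is no further support. The number of pathway genes called fell to 1, 2 and 4 without *Cxcl12* control 1, 2 and 3, to 8 without *Myc* control 2 and to 6 without *Myc* control 3. Over all genes these fits called 49, 60, 122, 160 and 118, against 316 in the main fit.

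Neutrophil markers also differed between groups. The 9 markers *S100a8*, *S100a9*, *Csf3r*, *Cxcr2*, *Retnlg*, *Ly6g*, *Mmp8*, *Trem1* and *Clec4d* summed to between 23.4 and 31.0 CPM in *Cxcl12* control, 35.0 and 160.0 CPM in *Cxcl12* KO, 50.8 and 282 CPM in *Myc* control, and 170.2 and 325 CPM in *Myc* KO kidneys. None was at 0 in any group, and *Ly6g*, which defines the lineage, was near 0 with 1 to 25 reads in a kidney. In *Myc* control against *Cxcl12* control kidneys all 9 were above 0 against 49.3% of all genes, with a median log2 fold change of 2.38. Of these, 4 were called higher (*Mmp8*, *S100a8*, *S100a9* and *Trem1*), against 1.12% of all genes. In the KO comparisons 8 were tested and all were above 0, with a median of 1.69 after *Cxcl12* loss and of 0.84 after *Myc* loss and 0 called in either. At an unadjusted p under 0.05, 8 of 8 and 1 of 8 were higher, against 6.41% and 10.6% of all genes. The share after *Myc* loss was thus near that of all genes. The monocyte and macrophage markers *Cd14* (1.45) and *Itgam* (1.34) were also called higher in *Myc* than in *Cxcl12* controls. These were 2 of 13 of their list, against 1.12% of all genes. After *Cxcl12* loss 7 of the 13 were above 0 and 6 below, and after *Myc* loss 6 above and 7 below, with 0 called in either. Kidney cell markers differed as well. Of 8 proximal tubule markers, 8 were below 0 in *Myc* against *Cxcl12* controls. There 1 was called (*Lrp2*, lower), against 138 of all 15903 genes called lower. In the *Cxcl12* KO comparison 8 were below 0, with 0 called and 3 at an unadjusted p under 0.05, against 6.63% of all genes lower. In the *Myc* KO comparison 7 of 8 were above 0. Of 5 tubular injury markers, 4 were above 0 in *Myc* against *Cxcl12* controls. There 1 was called (*Lcn2*, higher, also in the list of responding genes), against 1.12% of all genes called higher. In the *Cxcl12* KO comparison 5 were above 0, with 0 called and 4 at an unadjusted p under 0.05, against 6.41% of all genes higher. In the *Myc* KO comparison 3 of 5 were above 0. Endothelial markers were above 0 there in 7 of 8 and podocyte markers in 5 of 5. Of these, 3 and 2 were higher at an unadjusted p under 0.05, against 10.6% of all genes, and 0 were called. In the *Cxcl12* KO comparison 5 of 8 endothelial and 5 of 5 podocyte markers were above 0, with 0 called. The part of these cells, or of tubular injury, in the levels of the pathway genes was not tested.

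Within groups, several of the 10 genes followed marker sums of more than 1 cell type. After the mean of each group was subtracted, the log2 level of *Nfkbia* correlated with that of the summed neutrophil markers at r = 0.83 over 18 kidneys. It was 0.80 over the 12 that remained without the kidneys with under 5% unmapped reads, a choice made after seeing the data. The group means were those of all 18 kidneys and were not taken anew for these 12. That value and those in brackets below can thus still hold differences between groups. With the same markers r was 0.66 for *Nfkb1* (0.58 without those kidneys) and 0.64 for *Tnfaip3* (0.74). *Il1b* had r = 0.78 with neutrophil markers (0.55) and 0.79 with monocyte and macrophage markers (0.72). *Birc3* had its highest values with other lists, 0.72 with endothelial markers (0.83) and 0.72 with tubular injury markers (0.74), against 0.56 with neutrophil markers (0.72). *Tnfaip3* also had r = 0.60 with endothelial markers (0.55). For *Nfkb2* r with neutrophil markers was 0.31 (0.27). *Tnfrsf12a* had r = 0.0048 with neutrophil markers (-0.39), 0.55 with proximal tubule markers (0.51) and -0.50 with tubular injury markers (-0.62). The points share libraries and scaling, and these values are descriptions with no test.

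**Figure D4:**
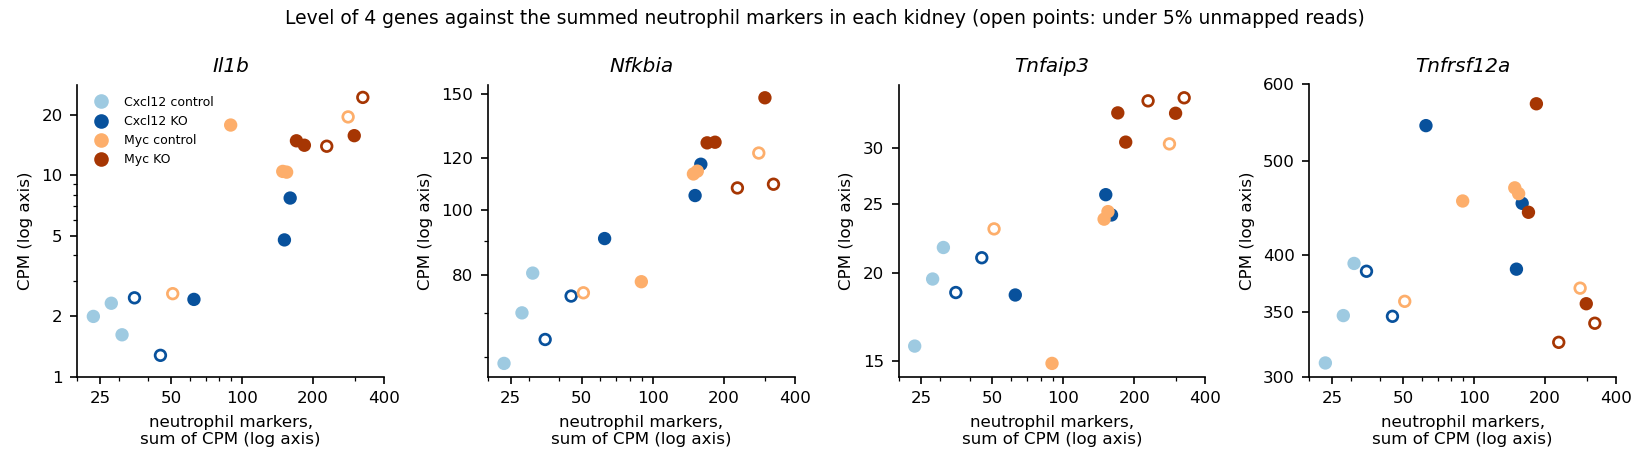
The level of *Il1b*, *Nfkbia*, *Tnfaip3* and *Tnfrsf12a* in CPM (vertical log axes) is plotted against the sum of 9 neutrophil markers in CPM (horizontal log axes) for each of 18 kidneys, coloured by group, with open points for kidneys with under 5% unmapped reads. *Cxcl12* control kidneys sit at the left between 23.4 and 31.0 CPM and *Myc* KO kidneys at the right between 170.2 and 325 CPM, and r within groups is 0.83 for *Nfkbia* and 0.0048 for *Tnfrsf12a*.

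Of the 36 pairs among the 9 genes that passed the filter over 18 kidneys, 31 had a correlation above 0 after subtraction of the group means, with a median r of 0.31. *Nfkb2* and *Relb*, the partners of the non-canonical dimer, had the highest value (r = 0.81, and 0.81 without the 6 kidneys with under 5% unmapped reads). *Nfkb1* and *Il1b* followed with 0.75, which was 0.38 without those kidneys. *Nfkbia* and *Tnfaip3* had 0.65, and 0.88 without them. *Birc3* and *Tnfrsf12a* had the lowest value, -0.49, and -0.38 without them. The values without them again rest on group means of all 18 kidneys and can hold differences between groups. Among all 15903 genes, the one most like *Tnfaip3* was *Rel* (r = 0.91), and the one most like *Nfkb2* was *Relb*. *Nfkb1* was most like *Fscn1* (0.96), *Tnfrsf12a* like *Sertad1* (0.97), *Il1b* like *Plscr3* (0.95) and *Slpi* (0.91), *Birc3* like *Mbnl3* (0.91) and *Relb* like *Nptx2* (0.88). These are the highest of many values over 18 kidneys and carry no test.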

How the data were processed

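Per the labels and the study's methods, the authors trimmed reads with Trimmomatic 0.32, mapped them to GRCm38 with STAR 2.4.0 and deposited raw counts per gene for each kidney. The column that ignores strand was used. The methods name ComBat for batch effects in the study's own analysis; the deposited counts are whole numbers from before that step, and the batches are not given in the sources used here. Rows for unmapped, multimapping, ambiguous or geneless reads (29.4% to 32.6% of reads) were left out. Names and positions come from GENCODE vM21.

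Genes with low counts were removed per cohort (filterByExpr), library sizes were adjusted with TMM, and edgeR 4.0.16 in R 4.3.3 gave quasi-likelihood tests, with Benjamini-Hochberg adjustment over all genes tested. The difference of KO effects and the control contrast were fitted over 18 kidneys. The code was tested on simulated data. Alternatives used DESeq2 1.42.0, limma 3.58.1, other scalings, filters and strand columns, a mapping covariate, replicate blocks and leave-one-out fits. Tables and figures used Python 3.11.15, numpy 2.4.6, pandas 2.3.3 and matplotlib 3.10.9.

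The 10 genes, the lists and the tests were chosen with earlier results of these data known. All 10 genes are named. Other pathway genes are named where called, and some, in KO comparisons, from the 3 smallest p of their list at 1 CPM or more; the genes called by alternatives are named besides, chosen after their values were seen. The labels number kidneys as replicates without naming the animals, so p-values measure the spread between these samples. No 2 kidneys of a group were duplicates within counting error (33 pairs compared).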

Additional observations from a re-analysis of the deposited data

Results flagged for a closer look

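Of 30 sets of 5 kidneys, made from the 10 genes in 3 groups, 1 held a kidney far from the others. *Il1b* in *Myc* KO kidney 3 was at 24.3 CPM, above 13.9 to 15.7 CPM in the other 4, a gap of 0.828 of the whole range. Chance alone flags about 1 in 20 such sets. The same kidney had the highest sum of neutrophil markers of all 18 kidneys, 325 CPM, and under 5% unmapped reads. The part of either in the level was not tested. Without it, the log2 fold change of *Il1b* in *Myc* KO against *Myc* control was 0.28, and it was not called either way.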

How the results depend on the processing

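Of the alternatives to the values of the 10 genes, 810 kept direction and side of the threshold, 19 lost a call, 8 gained one and 22 turned in sign. For the 10 genes, none was called in *Cxcl12* KO kidneys under any alternative. In *Myc* KO kidneys DESeq2 called 3, the fit over 18 kidneys 1, the mapping covariate 2, and leave-one-out fits 0 to 2. In the control contrast 1 was called without the kidneys with under 5% unmapped reads and 0 to 3 in leave-one-out fits. Pathway genes called in *Cxcl12* KO kidneys numbered 10 with DESeq2, 8 without a filter, 7 with the covariate, 7 without those kidneys and 0 to 2 in leave-one-out fits. In *Myc* KO kidneys they numbered 12 with DESeq2, 1 with the second strand column, 7 with the covariate, 0 without those kidneys and 0 to 16 in leave-one-out fits. In the control contrast they numbered 22 with DESeq2, 8 with limma-voom and 1 to 20 in leave-one-out fits. Over all genes DESeq2 called 355 in *Cxcl12* KO kidneys, 1081 in *Myc* KO kidneys and 792 in the control contrast. In *Cxcl12* KO kidneys the fit without a filter called 214 of all genes and the fit with the covariate 123. The fit over 18 kidneys called 683 of all genes in *Myc* KO kidneys. In the control contrast limma-voom called fewer of all genes than the main fit. The cause of these differences between fits was not tested. *Nfkb2* in *Myc* KO turned to -0.033 without those kidneys, and *Tnfrsf12a* ranged from -0.21 to 0.019 in leave-one-out fits. Differences of KO effects close to 0 turned as well: *Il1b* to 0.22 with limma-voom and *Nfkb1* to 0.059 with the first strand column, and in leave-one-out fits *Tnf* ranged from -0.11 to 0.25, *Nfkbia* from -0.19 to 0.049, *Nfkb1* from -0.077 to 0.025 and *Il1b* from -0.66 to 0.022. Low counts limit *Tnf* and *Il1a*.

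Replicate numbers are shared between groups, but no label says that they pair kidneys. Same-numbered kidneys correlated at -0.032 to 0.13 in the *Cxcl12* and -0.21 to 0.40 in the *Myc* cohort, and 2 of 3 and 0 of 5 controls correlated best with their own number. With a replicate block, 0 of the 10 genes were called in either KO comparison, and pathway genes called numbered 0 in *Cxcl12* KO and 1 in *Myc* KO kidneys (*Ptgs2*). Over all genes the block left 18 calls in *Myc* KO kidneys. Under the block the differences of KO effects turned for *Nfkbia* (0.065), *Nfkb1* (0.050) and *Il1b* (0.013). The block could not be fitted to the control contrast, whose numbers are nested in cohorts.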
